A study of Mus musculus with 8 samples.

Results

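The genes described here encode the potassium channels of the ventral pallidum (VP) that are opened by intracellular calcium or sodium. They are Kcnma1, Kcnmb2 and Kcnmb4 of the large-conductance (BK) channel, Kcnn1, Kcnn2 and Kcnn3 of the small-conductance (SK) channels, and Kcnt1 and Kcnt2 of the sodium-activated channels. They were taken from the table of log2 CPM (read counts scaled to the size of the library) by gene symbol, and each of the 8 had a row among 14353 genes. RNA was measured in VP tissue of untreated adult mice that were homozygous for vGluT2-Cre and heterozygous for the RiboTag allele of Rpl22, in which Cre adds an HA tag to a ribosomal protein. The tag is therefore present in cells that have expressed the vesicular glutamate transporter gene Slc17a6. TRAP libraries held RNA pulled down with the tagged ribosomes, and INPUT libraries held RNA of the same tissue, which the sample labels call input and the sequencing methods at one place call unbound. There were 4 pools of mice with 1 TRAP and 1 INPUT library each: VP1.6 (3 males, 4 females, 9 to 12 weeks old), VP2.2 (4 males, 6 females), VP2.6 (4 males, 7 females) and VP2.11 (4 males, 6 females), the last 3 pools at 10 to 16 weeks. All 38 mice carried both alleles, and no library from mice without the tag, which would measure RNA that sticks to the beads, was analysed here. The study's methods state more samples, more mice and a narrower range of ages than the sample labels used here.

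BK channels open when the membrane is depolarized and calcium rises, and they shorten the action potential and drive the fast part of the afterhyperpolarization. Their pore is made by 4 copies of the Kcnma1 product, and beta subunits change how readily the pore opens and whether it inactivates: the product of Kcnmb2 gives rapid inactivation, and that of Kcnmb4 is the main neuronal beta subunit. SK channels are not gated by voltage, sense calcium through calmodulin bound to each subunit, and set the slower afterhyperpolarization that spaces action potentials in a train. Channels of Kcnt1 (Slack) and Kcnt2 (Slick) open when sodium that entered during firing accumulates below the membrane. All pore subunits share a selectivity filter through which potassium passes, while the beta subunits of BK channels have none.

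The sequence of the filter separates the pore genes from the beta subunits, and is shown here for that reason for 4 of the 6 pore genes (not for Kcnn2 and Kcnn3). In the longest coding sequence of each gene (GENCODE M21, GRCm38), the reading frame was searched for the codon GGN, then TAC, TAT, TTC or TTT, then GGN, then GAC or GAT. There was 1 match in each of the 6 pore genes and none in Kcnmb2 and Kcnmb4, and 1.01% of 21764 coding genes held a match. The stretches below are 30 bases of the coding strand, with the 12 matched bases in capitals.
Kcnma1: tctacagtgGGTTATGGGGACgtttatgca
Kcnn1: ttgtccattGGCTATGGAGACatggtgccg
Kcnt1: tcaactgtgGGCTTCGGTGATgtgacgccc
Kcnt2: tctactgtgGGCTTTGGGGATgtcactcct
The second codon in capitals is TAT, for tyrosine, in Kcnma1 and Kcnn1, and TTC or TTT, for phenylalanine, in Kcnt1 and Kcnt2. Each stretch lies within 1 coding exon: exon 8 of 31 in Kcnma1 (chr14:23528401-23528430, minus strand), exon 4 of 9 in Kcnn1 (chr8:70850645-70850674, minus strand), exon 11 of 32 in Kcnt1 (chr2:25894364-25894393, plus strand) and exon 9 of 28 in Kcnt2 (chr1:140425275-140425304, plus strand). The position of a match says nothing about expression, which was read per gene and not per exon.

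The depth of the libraries is not stated with the values, but in 2 pools it could be read from the differences of low genes, which fell on ratios of whole reads. TRAP and INPUT held 13.0 M and 39.4 M reads in VP2.2 and 12.8 M and 25.4 M reads in VP2.6. Whole reads explained 99.3% of 1393 and 99.7% of 1469 low genes examined there, to within 3e-09 on the log2 scale. The depth of VP1.6 and VP2.11 is unknown, since INPUT VP1.6 and both VP2.11 libraries were rounded to 3 significant digits. The values of both libraries of a pool also carried a shift that is particular to the gene and the pool. The shift leaves the difference between TRAP and INPUT within a pool untouched but moves both levels: in VP2.2 the 100 TRAP reads and 218 INPUT reads of Kcnn2 stood 0.93 below the CPM of their reads on the log2 scale, whereas Kcnma1 (1591 and 1157 reads) stood 0.05 below. Libraries of the same pool deviated from their fraction's mean in opposite directions (r from -0.74 to -0.49 across genes, which are not independent replicates), against r from 0.05 to 0.44 for libraries of different pools. For this reason each gene was tested with limma both without a term for the pool and with the pool as a block, and both adjusted p-values are given. The difference tested with the block does not depend on the shift. Its adjusted p still can, through the levels used by limma and by the filter on low values. The SE was larger with the block for 95.6% of genes tested (median ratio 1.38), and fewer genes passed with it, although some genes had a smaller p with the block than without. The fit without the block takes the libraries of a pool as independent. Where they deviate in opposite directions its SE is too small, so a pass without the block only is the weaker result. Levels, their SDs, the order of pools and the overlap of groups are those of the shifted values.

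The target cells were present in the TRAP fraction by their defining marker. Slc17a6 was at 143 CPM in TRAP and 25.9 CPM in INPUT and rose by 2.55 on the log2 scale (adjusted p = 8.8e-05 by limma, 7.3e-06 with the pool block). Slc17a7, the transporter of other glutamatergic neurons, rose by 1.45 (adjusted p = 2.9e-04 by limma). The summed level of the 3 vesicular glutamate transporters was between 189 and 216 CPM in the TRAP libraries and between 32.2 and 70.8 CPM in INPUT. Slc32a1, the vesicular GABA transporter, was lower in TRAP by a log2 difference of -1.26, whereas Gad1 (613 and 516 CPM) and Gad2 (528 and 560 CPM), which make GABA, remained abundant in both fractions and did not pass the test. All 6 markers of striatal spiny neurons fell, 4 of 5 astrocyte markers fell and the oligodendrocyte markers Mbp, Mog and Sox10 fell in both fits (Mag was higher, without the block only). A difference between the fractions cannot tell more RNA per cell from more cells.

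Pool VP2.2 stood apart. As deposited, its 3 GABAergic markers summed to 584 CPM in INPUT, against 1214 to 1394 CPM in the other INPUT libraries, and to 1573 CPM in TRAP, against 918 to 1071 CPM in the others. Both levels carry the shift of the pool, and only the difference within the pool is free of it. Whether the tissue of VP2.2 held less GABAergic RNA can therefore not be read from them. The same limit holds for the other summed levels of VP2.2 given here and below. TRAP VP2.2 was also the highest TRAP library for the summed markers of spiny neurons (626 CPM, against 387 to 479 in the others), astrocytes (253, against 150 to 164) and cholinergic neurons (137, against 87.8 to 98.2) and the lowest for the glutamatergic markers (189, against 199 to 216), and their part in the differences of this pool was not tested. The within-pool difference of all tested genes followed exon length more closely there (Spearman rho = 0.57 across genes) than in VP1.6 (0.32), VP2.6 (0.22) or VP2.11 (0.21). Of the 8 channel genes, 5 had their largest TRAP minus INPUT difference in VP2.2 and none its smallest. Values without this pool are therefore given beside each of the 8 channel genes that passed a test.

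Across the 8 genes the BK pore gene Kcnma1 was the only one to pass in both fits. Without the block, 3 of the 8 passed, all higher in TRAP (Kcnma1, Kcnn1 and Kcnt2), where 47.9% of the 14249 genes tested passed, 23.2% higher and 24.8% lower. With the pool as a block, 1 of the 8 passed, where 32.2% of genes tested passed, 15.4% higher and 16.8% lower. Leaving out VP2.2 left 1 of the 8, Kcnma1, in either fit. The mean log2 level was higher in TRAP for 6 of the 8, against 47.6% of genes tested. The median log2 difference of the 8 was 0.45, against -0.05 over all genes tested. It was 0.12 once the trend of the differences with exon length was taken out of each library, against -0.02 over all genes. These shares for 8 genes are given as a description.

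**Figure D1:**
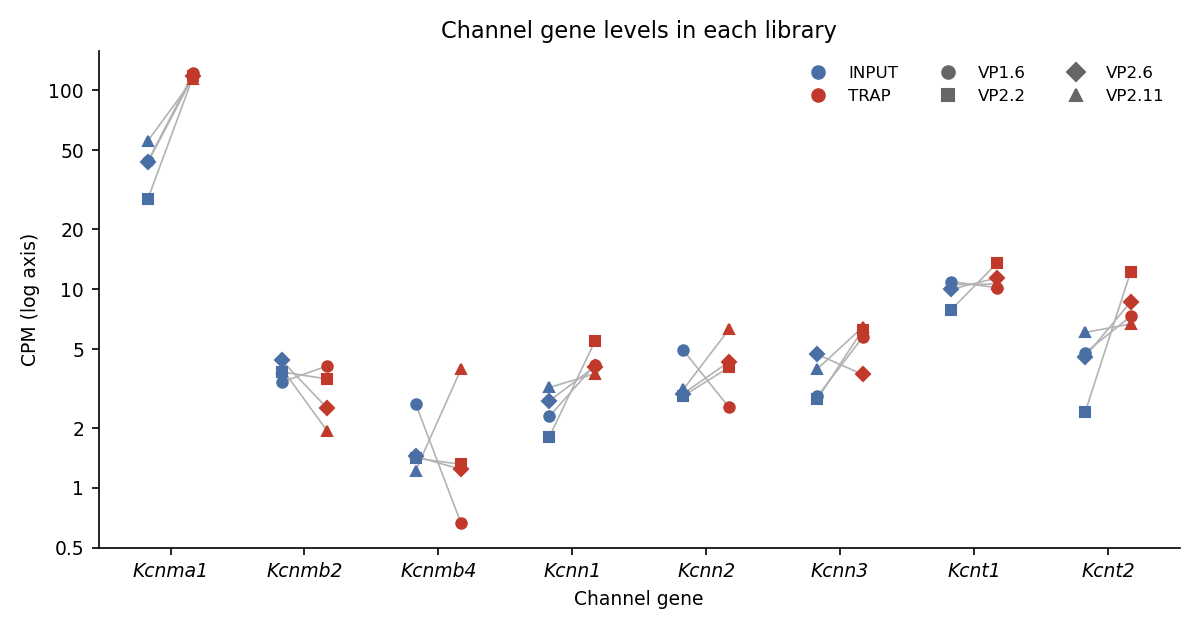
CPM of each channel gene in the 8 libraries (log axis), with INPUT in blue on the left, TRAP in red on the right, a symbol for each pool and a line joining the libraries of a pool. Kcnma1 lies above every other gene in both fractions, and its TRAP libraries lie between 115 and 122 CPM, all above its INPUT libraries.

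Kcnma1 (ENSMUSG00000063142, chr14:23289431-24014491, minus strand) was the most abundant of the 8 genes. It measured 122, 118, 118 and 115 CPM in TRAP, in the order VP1.6, VP2.2, VP2.6, VP2.11 used for all genes here, and 44.0, 28.4, 43.5 and 55.7 CPM in INPUT. As deposited, the TRAP libraries were nearly equal and the INPUT libraries were not, with INPUT lowest in VP2.2 and highest in VP2.11. The shift moves both levels and is unknown in VP1.6 and VP2.11. Which fraction set the size of the difference can therefore not be read from the levels. The mean was 118 ± 3.06 CPM in TRAP and 42.9 ± 11.2 CPM in INPUT (SD, n = 4 pools each). This is a log2 difference of 1.5 ± 0.23 (SE with the pool block), or 2.83-fold, with an adjusted p of 2.2e-04 by limma and 2.9e-04 with the pool block. The groups did not overlap, with every TRAP library above every INPUT library as in 23.3% of genes tested, and every one below in a further 24.4%. Counting error alone gave 95% intervals of 1.95 to 2.17 in VP2.2 and 1.33 to 1.56 in VP2.6, which do not overlap. The difference was 1.32 without VP2.2 (adjusted p = 6.8e-04 by limma with the pool block) and 0.93 with the exon length trend taken out (adjusted p = 0.002 with the pool block). Kcnma1 has the longest exons of the 8, 16976 bases in union. A transcript on the opposite strand, 4930519K11Rik, shares 5.98% of them, and whether the counting used strand is not given in the sources used here.

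Neither beta subunit gene passed in either fit. Kcnmb2 (ENSMUSG00000037610, chr3:31902507-32200180, plus strand) measured 4.11, 3.53, 2.52 and 1.94 CPM in TRAP of the 4 pools, and 3.41, 3.84, 4.39 and 4.00 CPM in INPUT. TRAP was lower in 3 of 4 pools and the fractions overlapped. The log2 difference was -0.42 ± 0.42 (SE with the pool block, n = 4; adjusted p = 0.23 by limma, 0.47 with the pool block). It was -0.66 without VP1.6, -0.22 without VP2.11 and -0.10 with quantile normalization. In VP2.6 the gene rested on 30 TRAP reads and 105 INPUT reads, and its difference of -0.80 there had a counting interval of -1.45 to -0.22.

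Kcnmb4 (ENSMUSG00000054934, chr10:116417861-116473878, minus strand) was the lowest of the 8 genes by CPM and the most variable. It measured 0.663, 1.32, 1.24 and 3.97 CPM in TRAP of the 4 pools, and 2.66, 1.41, 1.44 and 1.22 CPM in INPUT. The pools disagreed: TRAP was lower by -2.0 in VP1.6 and higher by 1.70 in VP2.11 on the log2 scale, and near INPUT in the other pools. The mean log2 difference was -0.16 ± 0.66 (SE with the pool block, n = 4; adjusted p = 0.83 by limma, 0.88 with the pool block), and it was 0.46 without VP1.6. Reads were few, 16 in TRAP and 53 in INPUT of VP2.2 and 14 and 33 in VP2.6. The counting interval of the VP2.6 difference was -1.26 to 0.69, which spans both directions and covers counting error in that pool only. Antisense transcripts Kcnmb4os1 and Kcnmb4os2 share 10.7% and 20.9% of its exons.

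Of the SK genes, none passed in both fits. Kcnn1 (ENSMUSG00000002908, chr8:70842049-70863258, minus strand), which encodes SK1, measured 4.17, 5.49, 4.08 and 3.76 CPM in TRAP of the 4 pools, and 2.30, 1.82, 2.75 and 3.20 CPM in INPUT. All 4 pools were higher in TRAP and the groups did not overlap, with the smallest gap in VP2.11. The log2 difference was 0.81 ± 0.43 (SE with the pool block, n = 4; adjusted p = 0.026 by limma, 0.16 with the pool block). Without VP2.2 it was 0.55 (adjusted p = 0.13 by limma, 0.40 with the pool block). In VP2.6, 50 TRAP reads and 67 INPUT reads gave a counting interval of 0.01 to 1.12 around 0.57.

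Kcnn2 (ENSMUSG00000054477, chr18:45268860-45686024, plus strand), which encodes SK2, measured 2.55, 4.04, 4.31 and 6.28 CPM in TRAP of the 4 pools, and 4.92, 2.91, 2.99 and 3.14 CPM in INPUT. Pool VP1.6 went against the other 3, with the lowest TRAP and the highest INPUT value as deposited. The reads of INPUT VP2.2 alone gave 5.54 CPM, against 2.91 CPM as deposited, and the shift in VP1.6 is unknown, so the order of the INPUT libraries without the shift is not known. The log2 difference was 0.26 ± 0.43 (SE with the pool block, n = 4; adjusted p = 0.51 by limma, 0.67 with the pool block). It was 0.67 without VP1.6, 0.02 without VP2.11 and 0.0009 with the exon length trend taken out.

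Kcnn3 (ENSMUSG00000000794, chr3:89520164-89675132, plus strand), which encodes SK3, measured 5.74, 6.27, 3.72 and 6.45 CPM in TRAP of the 4 pools, and 2.89, 2.80, 4.70 and 3.97 CPM in INPUT. Pool VP2.6 alone was lower in TRAP, by -0.34, on 40 TRAP and 101 INPUT reads (counting interval -0.91 to 0.20). The log2 difference over the pools was 0.63 ± 0.39 (SE with the pool block, n = 4; adjusted p = 0.076 by limma, 0.24 with the pool block). Without VP2.6 it was 0.95 (adjusted p = 0.030 by limma, 0.17 with the pool block), and with the exon length trend taken out it was 0.23 (adjusted p = 0.43 by limma, 0.65 with the pool block).

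Of the sodium-activated channels, Kcnt2 passed without the block only and Kcnt1 in neither fit. Kcnt1 (ENSMUSG00000058740, chr2:25863734-25918273, plus strand) measured 10.2, 13.5, 11.4 and 10.6 CPM in TRAP of the 4 pools, and 10.9, 7.89, 9.99 and 10.6 CPM in INPUT. Outside VP2.2 the fractions were close. The log2 difference was 0.22 ± 0.29 (SE with the pool block, n = 4; adjusted p = 0.33 by limma, 0.60 with the pool block) and 0.03 without VP2.2. With the exon length trend taken out it was -0.14.

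Kcnt2 (ENSMUSG00000052726, chr1:140246158-140612067, plus strand) measured 7.30, 12.2, 8.63 and 6.68 CPM in TRAP of the 4 pools, and 4.79, 2.40, 4.58 and 6.06 CPM in INPUT. TRAP was higher in all 4 pools, by 0.61, 2.35, 0.91 and 0.14 on the log2 scale, and the groups did not overlap. The mean difference was 1.00 ± 0.39 (SE with the pool block, n = 4), or 2.00-fold, with an adjusted p of 0.021 by limma and 0.062 with the pool block. Pool VP2.2 carried much of it: without that pool the difference was 0.55 (adjusted p = 0.079 by limma, 0.28 with the pool block). The 231 TRAP and 137 INPUT reads of VP2.2 gave a counting interval of 2.04 to 2.67, apart from that of VP2.6 (0.49 to 1.34, from 93 and 98 reads).

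An exact two-sided permutation test over the 8 libraries gave p = 0.0286, the smallest that 4 against 4 can give, for Kcnma1, Kcnn1 and Kcnt2, and between 0.0857 and 0.80 for the other 5 genes. Flipping the sign of the difference within pools cannot go below p = 0.125 with 4 pools, the value that the same 3 genes gave in this exact test. The permutation test ignores the pools, whose libraries deviated in opposite directions, so its p can be too small, also for the ratios below. All TRAP libraries lay above all INPUT libraries in 3320 genes tested (23.3%), as many as were higher in 4 of 4 pools. All lay below in a further 24.4%. The smallest permutation p of a gene thus restates that its 4 pools had the same sign.

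**Figure D2:**
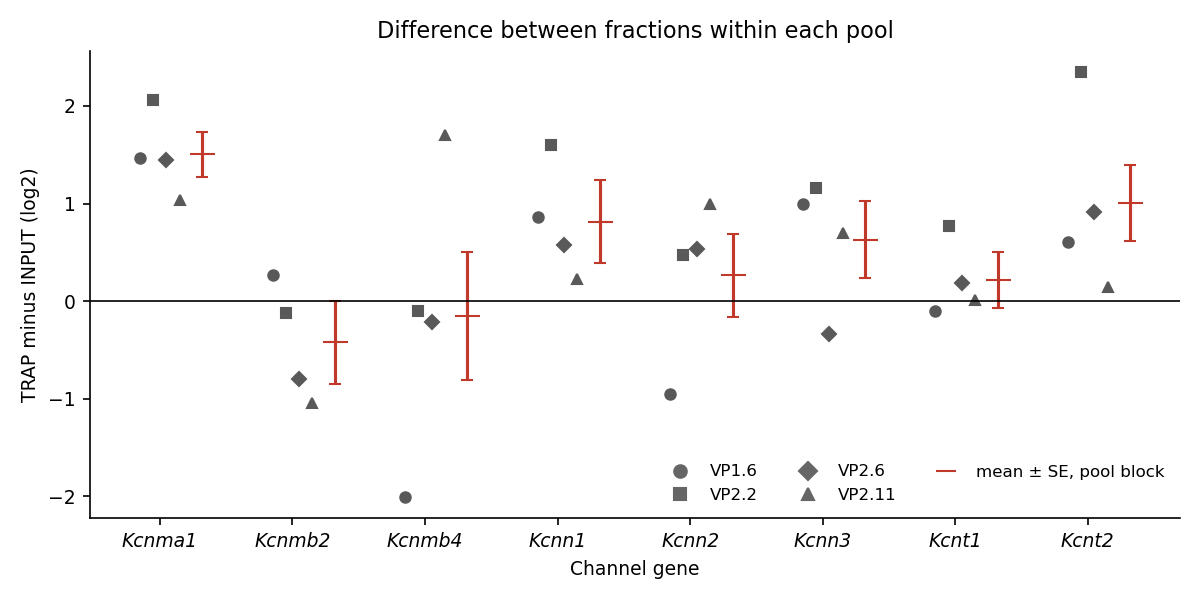
TRAP minus INPUT on the log2 scale for each channel gene in each pool (grey symbols), with the mean and its SE under the pool block (red). Kcnma1, Kcnn1 and Kcnt2 lie above 0 in all 4 pools, and Kcnmb4 spans -2.0 to 1.70.

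Compared per kilobase of exon, which allows genes of different length to be set side by side, Kcnma1 was again first in both fractions. In TRAP it was at 6.97 ± 0.18 CPM per kilobase (SD, n = 4), above the level of 64.3% of the genes tested, and exceeded the next gene, Kcnt2 at 1.26 ± 0.36, by 5.67-fold in the mean of the log2 ratios. The order then ran Kcnt1 (1.20 ± 0.15), Kcnmb2 (0.967 ± 0.31), Kcnn1 (0.954 ± 0.17), Kcnn2 (0.575 ± 0.21), Kcnmb4 (0.541 ± 0.44) and Kcnn3 (0.531 ± 0.12), and each of these overlapped its neighbour in the order. Kcnma1 alone did not overlap the gene after it. Without VP2.11, Kcnmb4 was at 0.323 CPM per kilobase in TRAP, below Kcnn3 at 0.502.

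In INPUT Kcnma1 was at 2.53 ± 0.66 CPM per kilobase, above 39.7% of the genes tested, and was followed by Kcnmb2 at 1.25 ± 0.13, over which it was 1.97-fold higher without overlap. Kcnt1 (1.04 ± 0.14), Kcnt2 (0.647 ± 0.22), Kcnn1 (0.549 ± 0.13), Kcnmb4 (0.506 ± 0.20), Kcnn2 (0.467 ± 0.13) and Kcnn3 (0.344 ± 0.09) came after it, each overlapping its neighbour. Kcnmb2 was thus in place 2 in INPUT and place 4 in TRAP. With the length of the longest transcript in place of the union of exons, Kcnma1 remained first and the order below it changed.

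**Figure D3:**
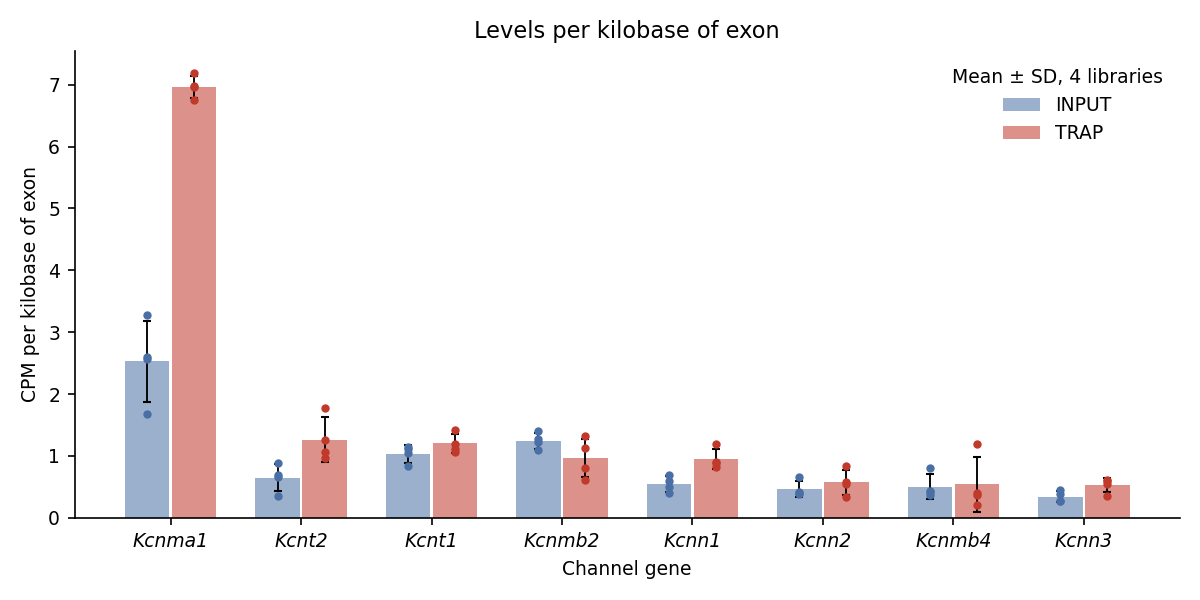
CPM per kilobase of exon for the 8 channel genes, ordered by the TRAP mean. Bars are means, error bars SDs over 4 libraries and points the libraries, with INPUT in blue and TRAP in red. Kcnma1 stands at 6.97 in TRAP and 2.53 in INPUT, and the TRAP means of the other genes lie between 0.531 and 1.26.

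How much beta subunit RNA accompanied the BK pore RNA was compared within each library, where a ratio does not depend on the scaling between libraries. The percentages still carry the shifts of both genes, whereas the difference of a log2 ratio within a pool does not. Per kilobase, Kcnmb2 stood at 13.3% of Kcnma1 in TRAP and at 50.6% in INPUT (geometric means). The log2 ratio was lower in TRAP in all 4 pools, by -1.20, -2.18, -2.25 and -2.09 in the order of pools above, a mean difference of -1.93 ± 0.24 (SE over pools, n = 4). The exact permutation test over libraries gave p = 0.0286, or 0.0714 when adjusted over the 5 ratios computed, and the exact sign flip test within pools gave its smallest possible p of 0.125. The adjusted value misses 0.05, and no ratio could pass in the paired form. With the length trend taken out the difference was -1.21.

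Kcnmb4 stood at 6.22% of Kcnma1 per kilobase in TRAP and at 19.6% in INPUT. Its log2 ratio to Kcnma1 was lower in TRAP in VP1.6 (-3.47), VP2.2 (-2.16) and VP2.6 (-1.66) and higher in VP2.11 (0.66). The mean difference was -1.66 ± 0.86 (SE over pools, n = 4; exact permutation p = 0.0857, adjusted 0.143), so that the direction was not shared by all pools. It ran from -2.43 without VP2.11 to -1.05 without VP1.6, and was -0.97 with the exon length trend taken out.

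Among the sodium-activated channels, Kcnt2 stood at 102.7% of Kcnt1 per kilobase in TRAP and at 59.6% in INPUT. The ratio was higher in TRAP in all 4 pools, by 0.71, 1.57, 0.73 and 0.13 on the log2 scale (mean 0.78 ± 0.30, SE over pools, n = 4; exact permutation p = 0.0286, adjusted 0.0714, exact sign flip p = 0.125). VP2.11 had the smallest difference and VP2.2 the largest, and the mean was 0.52 without VP2.2. Which of the genes stood higher in TRAP depended on the length used: with the longest transcript Kcnt2 was at 85.5% of Kcnt1 in TRAP and 49.6% in INPUT.

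Of the SK genes, Kcnn2 kept no clear order against Kcnn1, whereas Kcnn3 was below Kcnn1 per kilobase in every library. Kcnn2 was at 58.0% of Kcnn1 per kilobase in TRAP and 84.9% in INPUT, a log2 difference of -0.55 ± 0.57 that ran from -1.81 in VP1.6 to 0.77 in VP2.11 (SE over pools, n = 4; exact permutation p = 0.257) and was -0.13 without VP1.6. With the longest transcript as length the order turned, and Kcnn2 was at 104% of Kcnn1 in TRAP and 152% in INPUT. Kcnn3 was at 55% of Kcnn1 in TRAP and 62.5% in INPUT, a log2 difference of -0.19 ± 0.30 with 2 pools in each direction (exact permutation p = 0.543). With the longest transcript it was at 61.0% in TRAP and 69.3% in INPUT.

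**Figure D4:**
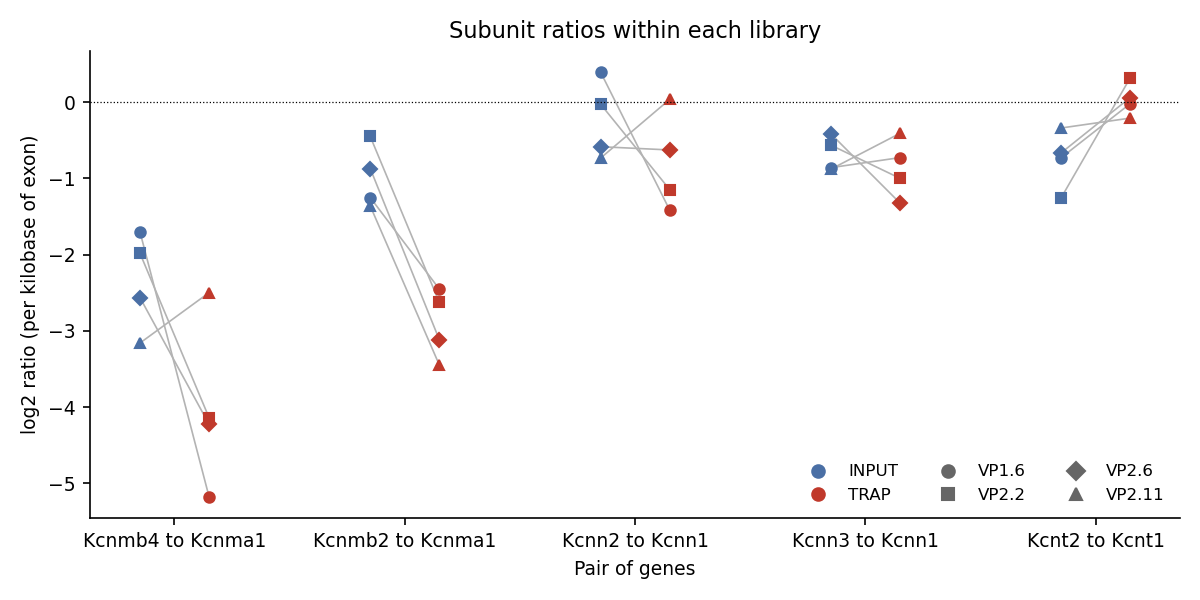
Log2 ratio of 2 channel genes per kilobase of exon within each library, with INPUT in blue, TRAP in red, a symbol for each pool and a line joining the libraries of a pool. The ratio of Kcnmb2 to Kcnma1 falls from INPUT to TRAP in 4 of 4 pools, that of Kcnmb4 to Kcnma1 in 3 of 4, and the ratio of Kcnt2 to Kcnt1 is higher in TRAP in 4 of 4.

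Other genes of these pathways were read from lists of accessory proteins, ion sources and regulators, 52 genes of which 46 had a row. Of the 46, 24 passed higher and 3 lower in TRAP without the block, and 14 higher and 1 lower with it (background above). Their median log2 difference was 0.50, or 0.30 with the length trend taken out.

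Of the other BK family members and accessory proteins, 4 of 10 had a row, and Kcnmb1, Kcnmb3, Kcnn4 (the intermediate-conductance channel), Lrrc26, Lrrc38 and Lrrc52 had none. Lingo1, a leucine-rich repeat protein that binds BK channels, was the most abundant at 57.3 CPM in TRAP and 25.6 CPM in INPUT, and rose by 1.15 (adjusted p = 3.5e-04 by limma, 0.0016 with the pool block). Lrrc55, a gamma subunit of BK channels, was at 14.4 and 9.10 CPM with a log2 difference of 0.68 that passed without the block only (adjusted p = 0.022 by limma, 0.098 with the pool block). Kcnu1 (log2 difference -0.71) and Fmr1 (0.10) did not pass.

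No gene of the SK complex passed in both fits. Its 9 genes comprise the calmodulins and the subunits of casein kinase 2 and protein phosphatase 2A, which lower and raise the calcium sensitivity of the channel. Without the block 2 passed higher and 1 lower, and with the block none did, and the median log2 difference was 0.02, or 0.21 with the exon length trend taken out. Calm2 was the most abundant, at 6763 CPM in TRAP and 6716 CPM in INPUT (log2 difference 0.02; adjusted p = 0.93 by limma). In VP2.2 the 9 genes summed to 11805 CPM in TRAP and 16114 CPM in INPUT. In the other pools TRAP was higher, with 14622 to 17002 CPM against 11033 to 11740 CPM in INPUT.

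Genes for calcium entry and release passed in 1 direction only. Of 12, 7 passed higher without the block and 5 with it (Ryr2, Cacna1g, Cacna1e, Cacna1i and Cacna1c), and none lower, with a median log2 difference of 0.78, or 0.34 with the exon length trend taken out. Ryr2, a calcium release channel of the endoplasmic reticulum, was at 63.8 CPM in TRAP and 24.4 CPM in INPUT and rose by 1.43 (adjusted p = 8.5e-04 by limma, 9.4e-04 with the pool block). Cacna1g, a T-type calcium channel, was at 5.10 and 1.93 CPM and rose by 1.39 (adjusted p = 0.0029 by limma, 0.022 with the pool block). Itpr1, an inositol trisphosphate receptor, was the most abundant at 150 CPM in TRAP and 118 CPM in INPUT and did not pass (log2 difference 0.39; adjusted p = 0.24 by limma). With the exon length trend taken out the log2 differences were 0.69 for Ryr2, 1.01 for Cacna1g and -0.21 for Itpr1. The 12 genes summed to 496 CPM in TRAP VP2.2, against 360 to 389 CPM in the other TRAP libraries, and to 145 CPM in INPUT VP2.2, against 259 to 301 CPM in the other INPUT libraries.

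Of the 5 sodium sources, 4 passed higher in both fits (Scn8a, Scn1a, Scn2a and Nalcn), with a median log2 difference of 0.97, or 0.51 with the exon length trend taken out. Scn8a, which encodes a sodium channel of the spike initiation zone, was at 156 CPM in TRAP and 59.7 CPM in INPUT and rose by 1.42 (adjusted p = 3.0e-04 by limma, 4.5e-04 with the pool block). Scn1a rose by 1.08 (adjusted p = 0.001 by limma, 0.0028 with the pool block). Scn2a was the most abundant at 287 CPM in TRAP and rose by 0.97 (adjusted p = 7.9e-04 by limma). With the exon length trend taken out the log2 differences were 0.88 for Scn8a, 0.66 for Scn1a and 0.51 for Scn2a. As deposited, INPUT VP2.2 was the lowest INPUT library for the 5 genes together, at 270 CPM against 382 to 453 CPM.

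Calcium buffers and pumps moved in both directions. Of 10, 6 passed higher and 1 lower without the block, and 3 higher (Calb2, Slc8a2 and Atp2b4) and 1 lower with it. Calb2, which encodes calretinin, was the most abundant at 1686 CPM in TRAP and 336 CPM in INPUT and rose by 2.29 (adjusted p = 7.7e-05 by limma, 3.3e-05 with the pool block). Pvalb, which encodes parvalbumin, was at 50.2 CPM in TRAP and 131 CPM in INPUT, with a log2 difference of -1.38 (adjusted p = 8.3e-04 by limma, 8.9e-04 with the pool block), or -0.73 with the exon length trend taken out.

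Of 6 kinases known to act on these channels, 3 passed higher and 1 lower without the block, and Prkca alone with it. Over all genes tested, 23.2% passed higher and 24.8% lower without the block, and 15.4% and 16.8% with it. The 6 genes summed to 1703 CPM in TRAP VP2.2, against 1348 to 1415 CPM in the other TRAP libraries. In INPUT VP2.2 they summed to 841 CPM, against 1250 to 1302 CPM in the other INPUT libraries. Prkca, a protein kinase C, was at 127 CPM in TRAP and 43.4 CPM in INPUT and rose by 1.62 (adjusted p = 6.0e-04 by limma, 4.7e-04 with the pool block). Prkcb was the most abundant at 594 CPM in TRAP, with a log2 difference of 0.56 that passed without the block only (adjusted p = 0.047 by limma, 0.11 with the pool block) and was 0.28 with the exon length trend taken out.

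**Figure D5:**
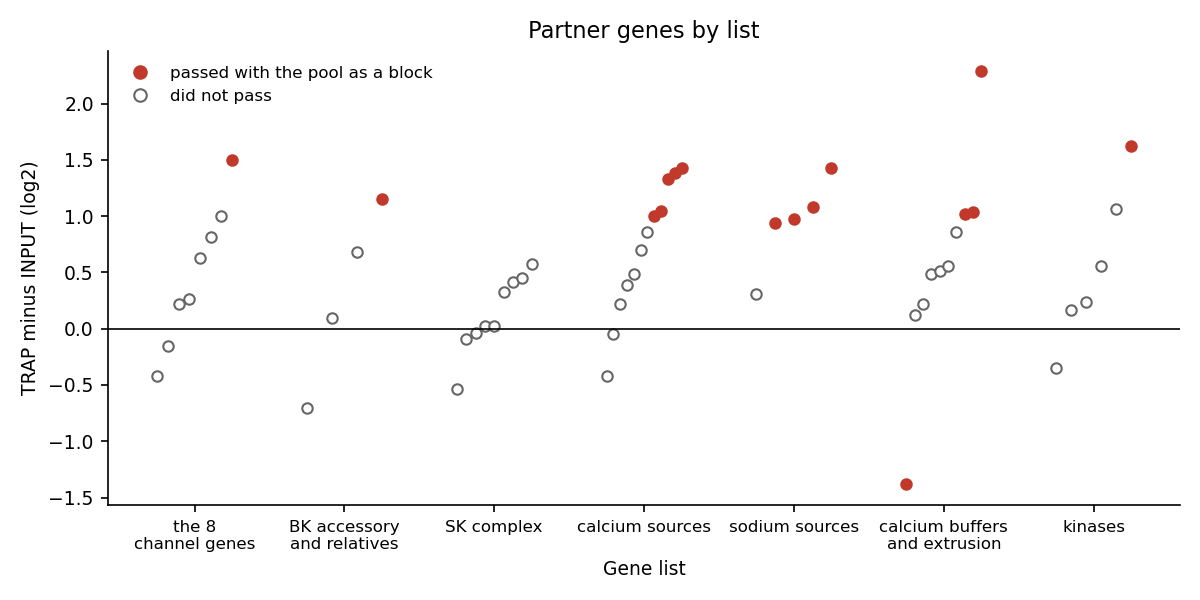
TRAP minus INPUT on the log2 scale for the 8 channel genes and for each gene of 6 partner lists, in rising order within a list. Filled red points passed with the pool as a block and open points did not: 5 of 12 calcium sources and 4 of 5 sodium sources passed higher, and none of the SK complex passed.

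Markers of other cells moved with the fraction beside the channel genes. Of 40 marker genes of other cells with a row, 24 passed lower and 4 higher in TRAP without the block, and 22 lower and 2 higher with it. The shares over all genes tested were 24.8% lower and 23.2% higher without the block, and 16.8% and 15.4% with it. Mbp of oligodendrocytes was at 335 CPM in TRAP, so it was not absent there, and at 1586 CPM in INPUT. The 6 spiny neuron markers summed to between 387 and 626 CPM in TRAP and between 1070 and 1653 CPM in INPUT, with Penk the most abundant in TRAP. The 5 astrocyte markers summed to between 150 and 253 CPM in TRAP, led by Slc1a3, and between 343 and 502 CPM in INPUT. Their part in the differences of the channel genes was not tested.

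Some markers ran the other way. The 3 endothelial markers with a row summed to 37.5 CPM in TRAP VP2.11 and to between 6.85 and 10.9 CPM in the other TRAP libraries, and Flt1 rose by 2.37 (adjusted p = 0.008 by limma, 0.0047 with the pool block). The precursor marker Cspg4 rose by 1.98 (adjusted p = 0.0014 by limma), while Olig1 of the same list had a log2 difference of -2.10. Of the other lists, the 5 microglial markers all fell without the block and 3 of them with it, Acta2 and Tagln of smooth muscle fell, Slc18a3 of cholinergic neurons fell while Chat, in whose locus it lies (log2 difference 0.70), passed higher without the block only, and neither Th nor Slc18a2 of dopamine neurons passed.

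The genes whose pattern was most like that of Kcnma1 were sought by the Euclidean distance between log2 values of the 8 libraries, each gene centred on its own mean. Among the genes tested, Cacna2d1, an auxiliary subunit of calcium channels, was nearest (distance 0.153), followed by Ddx10 (0.155), Scn8a (0.161), Luzp1 (0.167) and Copb2 (0.193), against a median distance of 2.49. The nearest genes were Ndst1 for Kcnt1 (0.124), Ephb3 for Kcnt2 (0.287), Ranbp10 for Kcnn1 (0.192), Vars for Kcnn2 (0.179) and Ints8 for Kcnn3 (0.0754). For the beta subunits they were Lrrc8d for Kcnmb2 (0.145) and Tfeb for Kcnmb4 (0.409), so Kcnmb4 had the most distant nearest gene of the 8.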

How the data were processed

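The authors aligned single reads with STAR 2.5.1a to the Ensembl mouse assembly (GRCm38), counted reads per gene with featureCounts, applied TMM scaling (edgeR), and ran limma on voom-transformed values with a weight for each sample. The values they deposited are log2 CPM per library. Columns of their own fold changes and p-values were not used. From 14398 entries, 45 repeats of a gene were left out, and 14249 genes were tested, those above 1 CPM in 3 or more libraries. TRAP and INPUT were compared with limma 3.58.1 (R 4.3.3; trended prior, two-sided, Benjamini-Hochberg over all genes tested, threshold 0.05), without a pool term, since the study's methods name none, and with the pool as a block, because both libraries of a pool come from the same mice; voom needs counts and was not run. CPM are back-transformed log2 values. Replicates are pools of different mice. Gene positions and exon lengths are from GENCODE M21, matched by identifier. Named genes are the 8 channel genes and, from each partner list, the most abundant in TRAP and up to 2 with the largest change passing both fits; Kcnu1, Fmr1, Lrrc55 and other list members named beyond these were chosen after their values were seen. The fits were tested on simulated data in which both libraries of a pool moved in the same direction. The libraries here deviated in opposite directions, so that test does not cover the fit without the block on these values. A marker gene and a coding stretch are not reported here. Genes, lists and tests were chosen with earlier results of these data known.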

Additional observations from a re-analysis of the deposited data

Results flagged for a closer look

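Each channel gene was examined in its 4 TRAP and its 4 INPUT libraries for a library far from the other 3, which makes 16 groups of 4, and chance alone would give 0.8 such libraries. The search found 1: INPUT VP1.6 was high for Kcnn2, with a log2 CPM of 2.30 against 1.54 to 1.65 in the other INPUT libraries. The value is as deposited and depends on the shift shared by the libraries of a pool: the reads of INPUT VP2.2 gave 2.47 against 1.54 as deposited, and the shift in VP1.6 is unknown, so whether VP1.6 stands apart without the shift is not known. VP1.6 is also the pool in which TRAP was lowest for Kcnn2, and without it the log2 difference was 0.67 in place of 0.26. Without VP2.11, where TRAP was highest, the log2 difference was 0.02.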

How the results depend on the processing

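Kcnma1 passed in each of 22 alternative fits, with log2 differences of 0.93 to 1.66, the lowest with the exon length trend taken out. Kcnn1 passed in 8 of 22, all of them without the block, and Kcnt2 in 11 of 22, most of them without the block. Each had the same direction in every fit. Without the block, 3 channel genes passed, leaving out each pool gave 1 to 3, and quantile normalization gave 4 (Kcnn3 added). With the pool as a block 1 passed, also with the length trend taken out. With the block, array weights or quantile normalization gave 2, Kcnma1 and Kcnt2, in place of 1, and leaving out each pool gave 1 to 2. Over all genes 6830 passed without the block and 4592 with it. The log2 difference of Kcnmb4 turned positive with quantile normalization (0.51) and, when each pool was left out, ranged from -0.77 to 0.46 (without VP1.6), in both fits, and that of Kcnt1 turned to -0.14 with the length trend taken out. The median of all genes moved from -0.05 to 0.04 with quantile normalization. Of the ratios, Kcnmb2 to Kcnma1 (-1.93) and Kcnt2 to Kcnt1 (0.78) had an exact sign flip p of 0.125 with the pools as blocks, and ranged from -2.17 to -1.82 and from 0.52 to 1.00 when each pool was left out, where 3 against 3 cannot go below an exact permutation p of 0.10. Kcnmb4 to Kcnma1 (-1.66) ranged from -2.43 to -1.05, and Kcnn2 to Kcnn1 (-0.55) from -0.99 to -0.13. Kcnn3 to Kcnn1 ranged from -0.40 to 0.0556, the value without VP2.6, where it was reversed. With the longest transcript as length, 10 of 16 levels per kilobase moved by more than 1 SD. The causes were not tested. The alternatives with the block that leave out a pool or change the filter, pseudocount or scaling were chosen after seeing the data. Depth limits Kcnmb4 most, with 14 to 16 TRAP reads where reads could be counted; 2 genes could not be resolved to reads in VP2.2.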
